A study of Mus musculus with 6 samples.

Results

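The 9 genes described here encode the roundabout receptors Robo1, Robo2 and Robo3, the SLIT ligands Slit1, Slit2 and Slit3, and the SLIT-ROBO GTPase-activating proteins Srgap1, Srgap2 and Srgap3. They were taken by gene name from 47643 genes in the deposited tables, of which 29725 had a count in any library. All 9 passed the filter on low counts that left 16072 genes for testing, and 0 were left out by it. RNA was sequenced from pancreatic islets, the endocrine cell clusters of the pancreas, of miR-203 transgenic mice (TG, 3 libraries) and of wild-type mice (WT, 3 libraries). The transgene was labelled as specific to beta cells, and its promoter is not given in the sources used here. Mice of both genotypes were labelled male, were 10 weeks old and had fasted for 12 h. TG 1, TG 2, WT 1 and WT 2 were deposited in a first table, and TG 3 and WT 3 in a second. The members were chosen by their TG and WT levels in these same libraries, so those levels in both genotypes are given as a description, with no test of that contrast.

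SLITs are secreted proteins that bind ROBO receptors on neighbouring cells, first known for repelling growing axons from the midline of the nervous system. Bound receptors recruit srGAPs, which bend membranes through their F-BAR domains and act on the actin skeleton. In mouse islets, ROBO receptors in endocrine cells are needed for the normal arrangement of the endocrine cell types within the islet, and SLITs have been reported to support beta-cell survival.

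Libraries held 21615905 to 27482339 counts in TG and 20176456 to 24631199 counts in WT. Ins2, the main mouse insulin gene, took 2.47% to 13.7% of counts in TG and 8.57% to 15.5% in WT, so the defining marker of beta cells was present in each library. The transgene was checked by reads at Mir203, with 170, 164 and 150 counts in libraries TG 1, TG 2 and TG 3, against 39 counts in WT 1 and 0 in WT 2 and WT 3. The library labelled WT 1, called WT 1 here, thus held Mir203 reads that the other WT libraries lacked. TG 3 and WT 3 went against the label male, with 27240 and 25145 counts of Xist, a transcript of the silenced X chromosome in females, against 4 to 13 in the libraries of the first table. For Robo1, Robo2, Slit2 and Srgap1, fold changes without WT 1 and with the first table only are therefore also given. Nothing in the labels says that libraries within a table came from separate animals, so p-values measure only how far these samples spread, part of which may be technical.

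Mature miR-203-3p is shown first, because its seed is what a transcript would be matched by. In the RefSeq table of GRCm38.p6 it lies at chr12:112130927-112130948 on the plus strand, and capitals mark the seed, bases 2 to 8.
miR-203-3p: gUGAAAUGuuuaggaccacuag
A full match to the seed in a transcript reads CATTTCA (7mer-m8), a match to bases 2 to 7 followed by an A reads ATTTCAA (7mer-A1), and both together read CATTTCAA (8mer). The 3′ untranslated regions (UTRs) of the 9 members in the GENCODE M21 transcripts (GRCm38) were searched on the transcript strand for these letters. None of the 9 held an 8mer. Robo1 and Srgap1 held 2 sites of 7 bases each, and Slit2 and Srgap2 held 1 each. Each is printed with its surroundings, 30 bases in all, and the match in capitals, because these are the only 7-base matches in the family.
Robo1, 7mer-A1, chr16:73044911-73044940, plus strand: cacatacagaactacagtctaATTTCAAtg
Robo1, 7mer-A1, chr16:73044981-73045010, plus strand: gtggtactttattttgtctttATTTCAAcc
Srgap1, 7mer-A1, chr10:121783900-121783929, minus strand: attaattaccttctaggtttaATTTCAAac
Srgap1, 7mer-m8, chr10:121783702-121783731, minus strand: ccctttccaagccactctcctCATTTCAca
Slit2, 7mer-m8, chr5:48307539-48307568, plus strand: attacaagcactgatagcagcCATTTCAtg
Srgap2, 7mer-A1, chr1:131288276-131288305, minus strand: aattgggcccagattaaaactATTTCAAgt
Robo2 held 3 matches to the 6 bases ATTTCA and no longer one in a UTR of 3987 bases, and Srgap3 held 1 such match in 4817 bases. Robo3, Slit1 and Slit3 held none. The match in Slit2 was in 1 of its 4 complete transcripts, and the 7-base match in Srgap2 in 1 of its 5.

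Such matches are common in long UTRs. Of the 13906 tested genes with a protein-coding transcript complete at its 3′ end, 25.1% held a match of 7 or 8 bases in the longest 3′ UTR. Any of these genes without a 3′ UTR was counted as holding no match. Among tested genes whose UTR was within 25% of the member's in length, the share was 27.99% for Robo1, 59.4% for Srgap1, 50.9% for Slit2 and 56.7% for Srgap2. It was 56.0% for Robo2, which held none. Across tested genes, the median log2 fold change, TG over WT, was -0.01 with and -0.0039 without a match of 7 or 8 bases. With an 8mer, which 5.03% of genes held, it was -0.03. Of the 4 members with a match of 7 bases, Robo1 and Srgap1 were lower in every TG library than in any WT library, Slit2 was higher, and Srgap2 overlapped. A match is a description of letters in a transcript, and binding was not measured here.

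**Figure D1:**
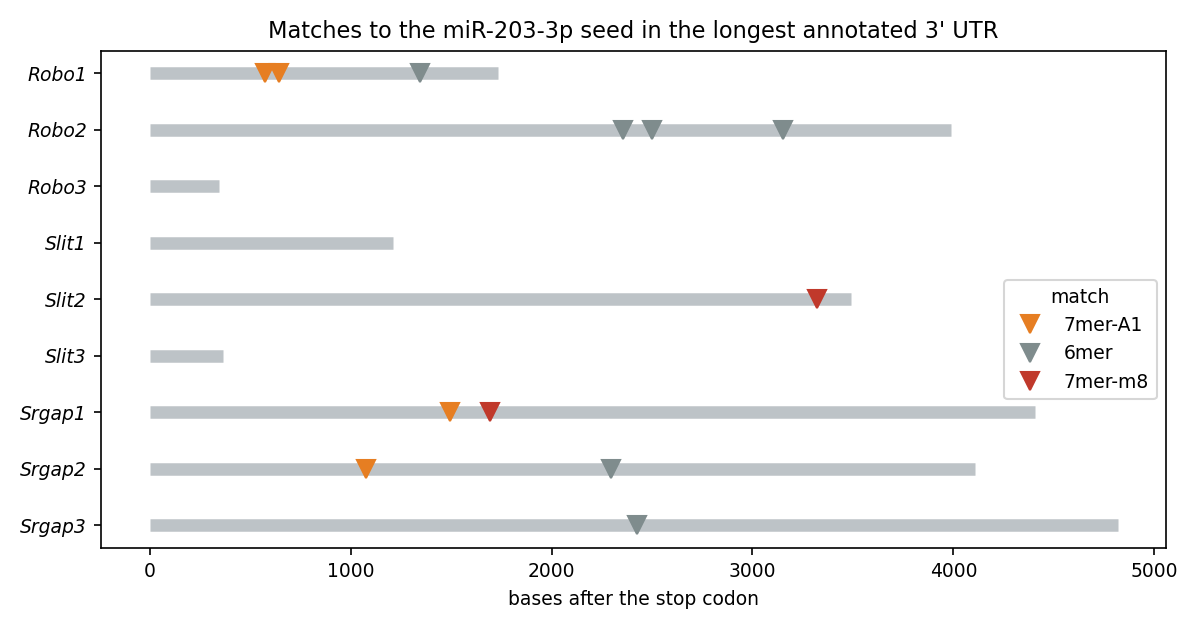
Matches to the miR-203-3p seed along the longest annotated 3′ UTR of each member, in bases after the stop codon (horizontal axis, 1 grey bar per gene as long as its UTR, triangles coloured by match type). Robo1 and Srgap1 carry 2 matches of 7 bases each, Slit2 and Srgap2 carry 1 each, and Robo2 and Srgap3 carry 6-base matches alone.

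The receptors come first. Robo2, the receptor gene with the highest mean level in WT islets, was lower in TG, and far more so in TG 1 and TG 3 than in TG 2. Robo1 was lower in TG, with nearly the same level in the 3 TG libraries. Robo3, which in mammals binds NELL2 rather than SLITs, was at low levels with no split of the genotypes. Levels between libraries are given in CPM, raw counts scaled to a common library size adjusted by the trimmed mean of M values.

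Robo1 (ENSMUSG00000022883), a receptor for SLIT1 and SLIT2 in axons and in many epithelia, spans 383 kb at chr16:72663149-73046095 on the plus strand of GRCm38. Its level was 24.4, 24.97 and 26.4 CPM in libraries TG 1, TG 2 and TG 3, against 38.7, 39.5 and 55.2 CPM in WT 1, WT 2 and WT 3. The genotypes did not overlap, and the TG libraries lay close together while WT 3 stood above the other WT libraries. Robo1 averaged 25.2 ± 1.02 CPM in TG islets and 44.5 ± 9.28 CPM in WT islets (SD, n = 3 each), a fitted log2 fold change of -0.80 (SE 0.14). Against the WT level of its own table, Robo1 was at 62.3% in TG 1, 63.8% in TG 2 and 47.8% in TG 3. Over the 14 alternatives the log2 fold change of Robo1 stayed between -1.06 with the second table only and -0.66 with the first table only, and it was -0.83 without WT 1.

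Robo2 (ENSMUSG00000052516), the receptor best known for guiding forebrain and optic axons and for placing the ureteric bud, spans 519.52 kb at chr16:73892306-74411825 on the minus strand. It lies 846 kb from the end of Robo1. Its level was 30.9, 88.4 and 25.7 CPM in libraries TG 1, TG 2 and TG 3, against 138, 135 and 117 CPM in WT 1, WT 2 and WT 3. Every TG library was below every WT library, but TG 2 stood nearer to the WT libraries than to the other TG libraries. Robo2 averaged 48.4 ± 34.8 CPM in TG islets and 129.9 ± 11.5 CPM in WT islets (SD, n = 3 each), a log2 fold change of -1.52 (SE 0.40). Against the WT level of its own table it was at 22.6% in TG 1, 64.8% in TG 2 and 22.0% in TG 3. The log2 fold change of Robo2 was -2.17 without TG 2, -1.60 without WT 1 and -1.19 with the first table only.

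Markers of mature beta cells were uneven across the TG libraries too. Of the 8 beta-cell markers listed, 6 were below the WT level of their own table in every TG library, and all 8 had counts in every library. Over all tested genes, 13.4% were below the WT libraries of their own table in every TG library. The summed level of the 8 markers ranged from 54161 to 222469 CPM in TG and from 115911 to 236073 CPM in WT. Against WT of the same table, the transcription factor Mafa was at 0.834%, 55.9% and 2.69% in libraries TG 1, TG 2 and TG 3, and the peptide Ucn3 at 1.245%, 57.2% and 1.24%. The glucose transporter Slc2a2 was at 12.2%, 54.6% and 30.8%, and Ins2 at 14.4%, 92.2% and 34.3%. These 4 genes, like Robo2, were highest in TG 2. So were Ins1, at 29.3%, 68.7% and 50.8%, and Iapp, at 56.0%, 123% and 89.7%, above WT in TG 2. Nkx6-1 went otherwise, at 89.2%, 90.9% and 164%, highest in TG 3 and above WT there. Robo1 was also highest in TG 2 on this measure, but with a narrower range, from 47.8% to 63.8%. Pdx1, a beta-cell transcription factor, was at 51.8%, 62.1% and 67.0%. The part of these markers in the levels of Robo1 and Robo2 was not tested. In RNA from whole islets, fewer cells of a type and less RNA per cell cannot be told apart.

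Robo3 (chr9:37415669-37433163, minus strand) spans 17.5 kb, the only member shorter than 100 kb. Its counts were 19, 47 and 69 in libraries TG 1, TG 2 and TG 3, against 26, 60 and 58 in WT 1, WT 2 and WT 3. These were 0.661, 1.87 and 2.86 CPM in TG and 1.40, 2.64 and 2.54 CPM in WT. The genotypes overlapped, and TG 1 and WT 1 held the lowest levels of their genotypes. Robo3 averaged 1.797 ± 1.10 CPM in TG islets and 2.19 ± 0.687 CPM in WT islets (SD, n = 3 each), with a log2 fold change of -0.39 (SE 0.48) that came to 0.17 in the second table alone and to 0.0083 without TG 1.

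**Figure D2:**
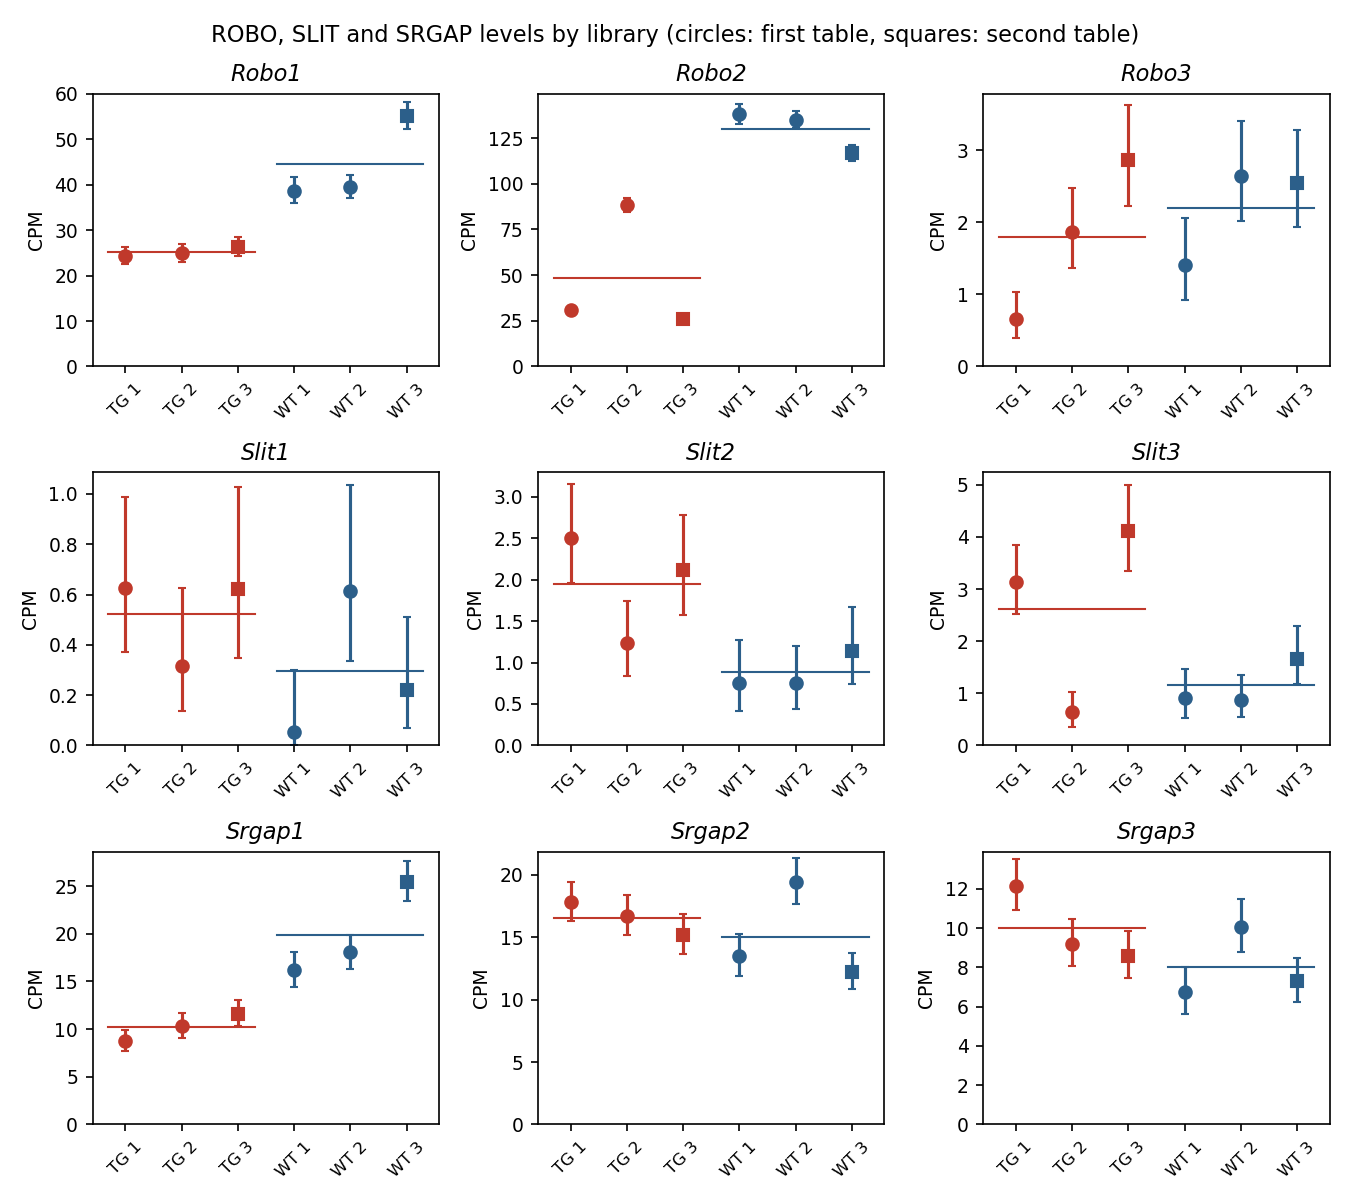
Level of each member in each library, in CPM (vertical axes, each starting at 0), with TG libraries in red left of WT libraries in blue. Points are libraries (circles, first table, and squares, second table), error bars are 95% exact Poisson intervals for counting error only, and horizontal lines are the genotype means. Robo1, Robo2 and Srgap1 are lower in every TG library than in any WT library, Slit2 is higher, and the other 5 overlap.

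The ligands were scarce in islets of both genotypes. Slit2, a ligand made in many tissues outside the nervous system, had 72, 31 and 51 counts in libraries TG 1, TG 2 and TG 3, against 14, 17 and 26 counts in WT 1, WT 2 and WT 3. It lies at chr5:47983138-48307733 on the plus strand and was at 2.504, 1.23 and 2.12 CPM in TG and 0.756, 0.748 and 1.14 CPM in WT. Each TG library was above each WT library, though the counting interval of TG 2 overlapped with those of all 3 WT libraries, and that of TG 3 with that of WT 3. Slit2 averaged 1.95 ± 0.653 CPM in TG islets and 0.881 ± 0.223 CPM in WT islets (SD, n = 3 each), a log2 fold change of 1.16 (SE 0.38). It was 1.13 without WT 1, 1.31 with the first table only and 0.79 without TG 1.

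Slit3, the ligand whose loss in mice causes a diaphragm hernia, lies at chr11:35121224-35708507 on the plus strand. Its level was 3.13, 0.635 and 4.11 CPM in libraries TG 1, TG 2 and TG 3, from 90, 16 and 99 counts. It was 0.918, 0.880 and 1.66 CPM in WT 1, WT 2 and WT 3, from 17, 20 and 38 counts. TG 1 and TG 3 were above every WT library and TG 2 was below every one, so the genotypes overlapped. Slit3 averaged 2.62 ± 1.79 CPM in TG islets and 1.15 ± 0.442 CPM in WT islets (SD, n = 3 each), a log2 fold change of 1.15 (SE 0.56) that came to 0.41 without TG 1 and 1.57 without TG 2.

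Slit3 and the summed markers of stellate cells and fibroblasts, the collagen-making cells around islets, lay on the same side of WT by library. Slit3 was at 348%, 70.7% and 247% of its own-table WT level in libraries TG 1, TG 2 and TG 3. The summed stellate and fibroblast markers were at 381%, 72.5% and 181%. Of these 10 markers, all 10 had counts in every library, 4 were above the WT level of their table in every TG library and 0 were below it in every one. Their sum ranged from 34.4 to 181 CPM in TG and from 26.2 to 80.2 CPM in WT. Single markers went otherwise than Slit3. Pdgfrb and Cspg4 were below WT in TG 1, at 73.2% and 87.0%, and Col1a2 was below it in TG 3, at 89.7%. The summed myeloid markers were also above WT in TG 1 and TG 3 and below it in TG 2, at 133%, 75.7% and 235%. Slit2 stood at 333%, 164% and 186% in the same libraries, so TG 2 was above WT for Slit2 and below it for Slit3. The summed duct markers were above WT in each TG library, at 215%, 164% and 222%, with 1487 to 1950 CPM in TG and 687 to 1044 CPM in WT. Of the 8 duct markers, all 8 had counts in every library. Duct markers were not alone in this. The summed Schwann-cell markers were at 206%, 133% and 160%, and the summed delta-cell markers at 219%, 110% and 122%. Ppy, the marker listed for PP cells, was at 285%, 173% and 668%. The part of these cell types in the SLIT levels was not tested.

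Slit1, which in the mouse is expressed mainly in the nervous system, was barely detected. It lies at chr19:41600257-41743665 on the minus strand and had 18, 8 and 15 counts in libraries TG 1, TG 2 and TG 3, against 1, 14 and 5 counts in WT 1, WT 2 and WT 3. The genotypes overlapped, and TG 1, at 0.626 CPM, held little more than WT 2, at 0.616 CPM. The log2 fold change of 0.77 (SE 0.74) came to 0.34 without WT 1 and to 2.06 without WT 2. The 1 count of WT 1 gave 0.0540 CPM (95% exact Poisson interval 0.00137 to 0.301).

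Of the intracellular srGAPs, Srgap1 was lower in TG while Srgap2 and Srgap3 overlapped between the genotypes. Srgap1 (ENSMUSG00000020121), which inactivates CDC42 downstream of SLIT and ROBO in migrating neurons, lies at chr10:121780991-122047315 on the minus strand. Its level was 8.76, 10.3 and 11.6 CPM in libraries TG 1, TG 2 and TG 3, against 16.2, 18.04 and 25.5 CPM in WT 1, WT 2 and WT 3. The genotypes did not overlap, and within both of them the library of the second table was the highest. Srgap1 averaged 10.2 ± 1.43 CPM in TG islets and 19.9 ± 4.91 CPM in WT islets (SD, n = 3 each), a log2 fold change of -0.94 (SE 0.17). Against the WT level of its own table it was at 51.2% in TG 1, 60.3% in TG 2 and 45.6% in TG 3. Over the 14 alternatives the log2 fold change of Srgap1 stayed between -1.13 with the second table only and -0.84 with the first table only, and it was -0.997 without WT 1.

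Srgap2, an F-BAR protein that slows neuronal migration and paces the maturing of dendritic spines, lies at chr1:131285251-131527352 on the minus strand. It was at 17.8, 16.7 and 15.2 CPM in libraries TG 1, TG 2 and TG 3, against 13.5, 19.4 and 12.2 CPM in WT 1, WT 2 and WT 3, with a log2 fold change of 0.15 (SE 0.19). WT 2 was the highest of all 6 libraries, so the genotypes overlapped. Srgap3, which binds the actin regulator WAVE1 and limits RAC activity, lies at chr6:112717971-112947266 on the minus strand. It was at 12.2, 9.21 and 8.59 CPM in libraries TG 1, TG 2 and TG 3, against 6.75, 10.1 and 7.31 CPM in WT 1, WT 2 and WT 3, with a log2 fold change of 0.31 (SE 0.24). Here too WT 2 was above a pair of TG libraries.

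Of the 9 members, 3 were lower in every TG library than in any WT library, and 6.42% of all tested genes were. For 1 member, Slit2, every TG library was higher, which held for 6.96% of tested genes. The fitted log2 fold change was below 0 for 4 members and above 0 for 5, with a median of 0.15, while 51.9% of tested genes were below 0, 48.1% were above it and the median over them was -0.01. The choice of members rests on this contrast, so nothing is read from these counts and no test of it is given for them. Other annotated genes overlap Robo1 (1 gene), Robo2 (7), Slit2 (7), Slit3 (4), Srgap1 (1), Srgap2 (5) and Srgap3 (1), and without the strand setting of the counting their reads cannot be told apart.

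**Figure D3:**
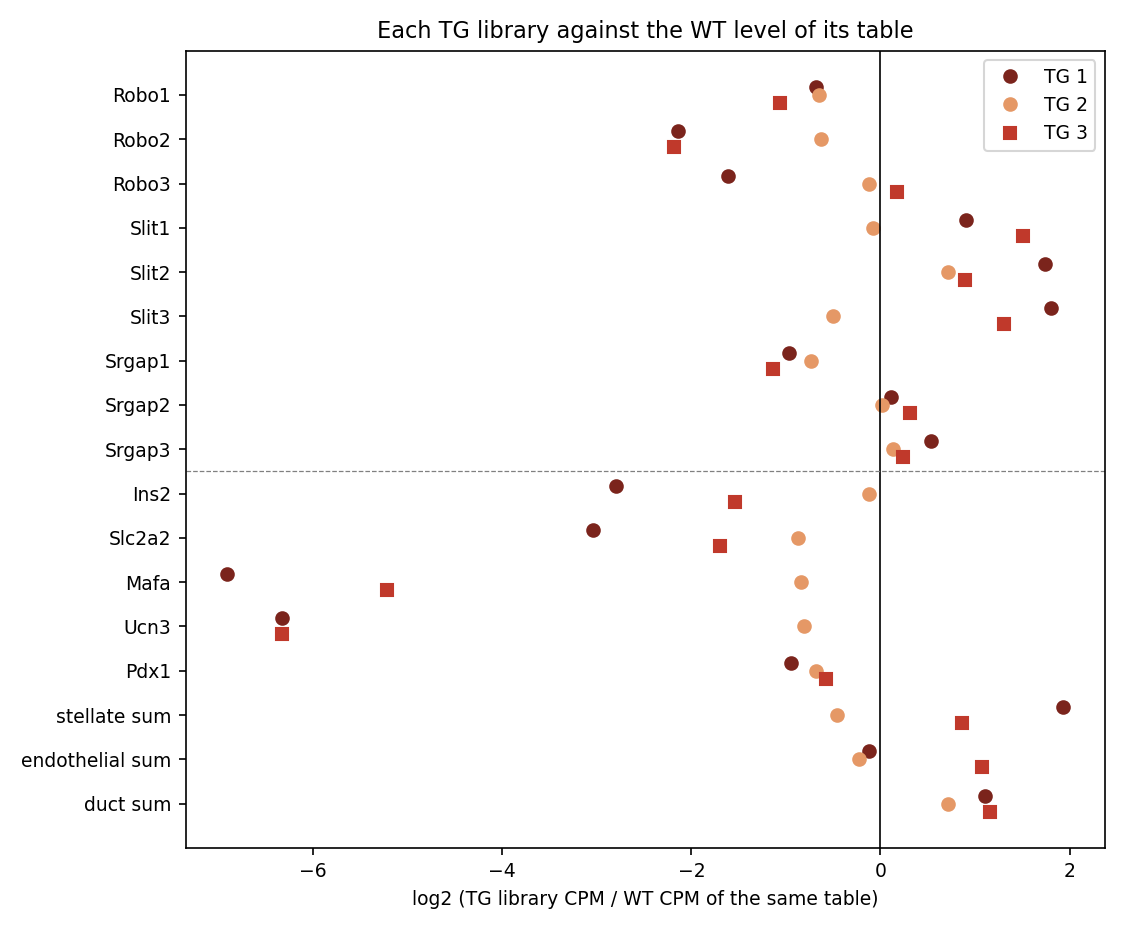
Each TG library set against the WT level of its own table, as the log2 ratio of CPM (horizontal axis, 0 marks the WT level), for the 9 members above the dashed line and for beta-cell genes and summed markers of other cell types below it. Points are single TG libraries (circles, TG 1 and TG 2, and square, TG 3). TG 2 lies nearer to 0 than TG 1 and TG 3 for Robo1, Robo2, Srgap1, Ins2, Mafa and Ucn3, and the 3 points of Robo1 and of Srgap1 lie closer together than those of Robo2.

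Whether the TG effect differed between the tables is a contrast that the choice of members did not use. The interaction of table and genotype was called for 0 of 9 members and for 0% of tested genes in edgeR (Benjamini-Hochberg adjusted p = 0.9999 for each member), with 0 members and 366 genes at an unadjusted p under 0.05. DESeq2 called 5 genes, none of them a member, and limma-voom 0. The smallest unadjusted p among members was that of Robo1, 0.219, with a fold change 0.40 lower on the log2 scale in the second table than in the first (interaction -0.40, SE 0.29). For Robo2 the interaction was -0.99 (SE 0.80). With 1 library of each genotype in the second table, this test takes its spread from the first. The table itself was called for 0 of 9 members and for 9.53% of tested genes (5.68% higher in the second table). TG 3 and WT 3, the libraries of the second table, were also those with high Xist counts. Table and apparent sex therefore cannot be told apart, in this contrast or in the interaction. Srgap1 came nearest, at 0.43 (SE 0.18) log2 units higher in the second table than in the first, with an unadjusted p of 0.0445 and a Benjamini-Hochberg adjusted p of 0.145 in edgeR. Robo2 ran the other way, at -0.69 (SE 0.43).

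Levels were compared between genes with the deposited FPKM, fragments scaled by gene length and library size, which were normalized separately in the 2 tables. In TG islets the order was Robo1 at 3.35 ± 0.402, Robo2 at 2.87 ± 1.95, Srgap2 at 1.32 ± 0.0419, Srgap1 at 1.13 ± 0.241 and Srgap3 at 1.01 ± 0.151 FPKM (SD, n = 3). In WT islets it was Robo2 at 7.84 ± 0.0783, Robo1 at 5.96 ± 1.81, Srgap1 at 2.21 ± 0.754, Srgap2 at 1.19 ± 0.249 and Srgap3 at 0.814 ± 0.162 FPKM (SD, n = 3). Robo1 and Robo2 overlapped in both genotypes. In TG, Srgap1 overlapped with Srgap2 and with Srgap3, whereas in WT the 3 srGAPs did not overlap. Slit3 and Robo3 followed, at 0.444 and 0.273 FPKM in TG and at 0.195 and 0.327 FPKM in WT, and their ranges overlapped in both. Slit1 and Slit2 were lowest, at 0.0890 and 0.0770 FPKM in TG and at 0.0495 and 0.0352 FPKM in WT, and did not differ beyond their spread. The authors' length for Slit2, 25433 bases, lowers its value against the 5921 bases of Slit1 and the 6067 of Slit3. Of 22513 genes listed above 0 in WT, 74.1% were below Robo2 and 7.11% below Slit2.

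The makeup of each subfamily thus differed between libraries. The summed receptors came to 6.49 ± 1.84 FPKM in TG and 14.1 ± 1.84 FPKM in WT (SD, n = 3 each). Robo1 exceeded Robo2 per length 1.72-fold in TG 1 and 2.24-fold in TG 3, but was at 0.617 of it in TG 2, against 0.613, 0.639 and 1.03 in WT 1, WT 2 and WT 3. TG 2 and the WT libraries of its table were therefore alike in this ratio. The ratio rests on the authors' lengths, 7563 bases for Robo1 and 16516 for Robo2. In CPM, Robo2 was above Robo1 in TG 1 (30.9 against 24.4) and just below it in TG 3 (25.7 against 26.4). Srgap1 made up 26.6% to 37.9% of summed srGAP FPKM in TG and 43.4% to 61.9% in WT. The ratio of Srgap1 to Srgap2 per length was 0.677, 0.849 and 1.05 in libraries TG 1, TG 2 and TG 3, against 1.65, 1.28 and 2.87 in WT 1, WT 2 and WT 3. Each TG library was below each WT library in this ratio, which follows from the levels that chose the members. The summed SLITs came to 0.610 ± 0.380 FPKM in TG and 0.279 ± 0.107 FPKM in WT (SD, n = 3 each), most of it Slit3.

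**Figure D4:**
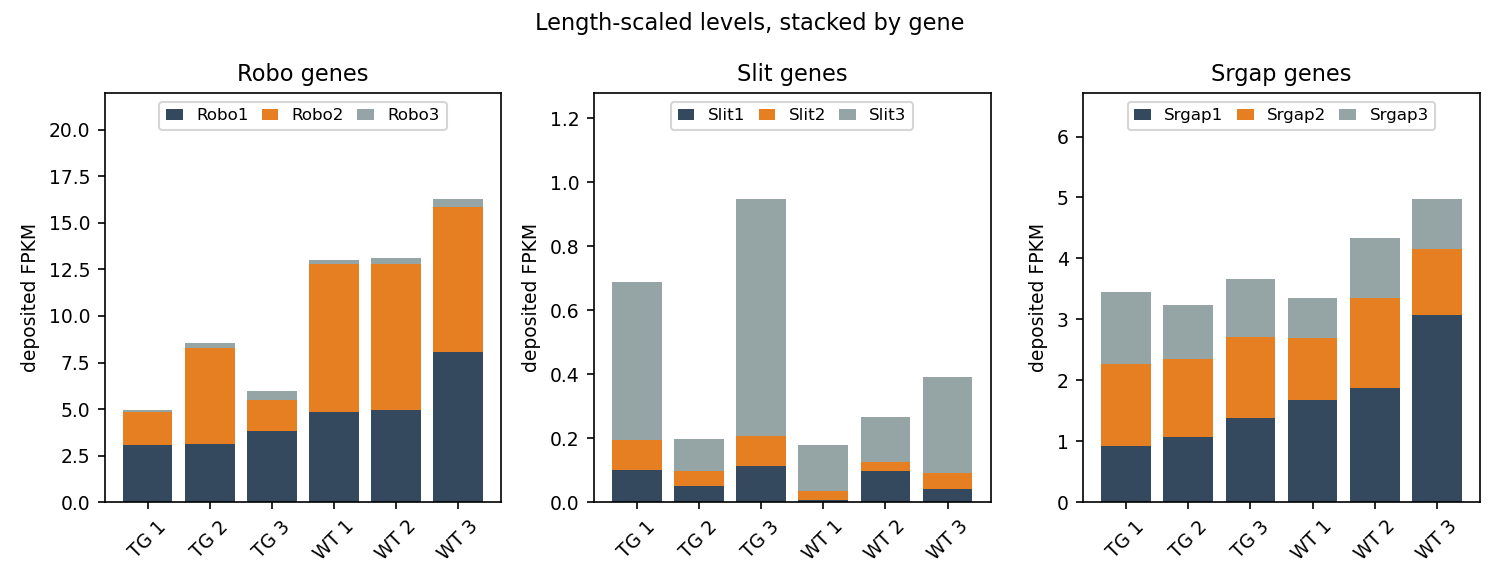
Deposited FPKM of the receptor, ligand and srGAP genes in each library (vertical axes, linear from 0 and different in each panel), stacked by gene, with TG libraries left of WT libraries. Summed receptor FPKM is 4.96 to 8.53 in TG and 13.0 to 16.3 in WT, and the ligand sums are below 1 FPKM in every library.

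The promoters of the 3 genes that were lower in every TG library are printed because these genes were low together. They are RefSeq sequences of GRCm38.p6 from 250 bases before to 50 after the annotated start, at the starts that the deposited tables give, and capitals mark GC boxes (GGGCGG on either strand), found in Srgap1 alone of the 3.
Robo1, chr16:72662899-72663198, plus strand: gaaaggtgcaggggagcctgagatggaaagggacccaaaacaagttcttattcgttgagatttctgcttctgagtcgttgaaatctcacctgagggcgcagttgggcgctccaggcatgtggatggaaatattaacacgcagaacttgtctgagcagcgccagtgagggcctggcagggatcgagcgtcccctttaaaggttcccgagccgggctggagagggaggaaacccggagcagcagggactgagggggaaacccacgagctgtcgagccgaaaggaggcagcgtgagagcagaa
Robo2, chr16:74411776-74412075, minus strand: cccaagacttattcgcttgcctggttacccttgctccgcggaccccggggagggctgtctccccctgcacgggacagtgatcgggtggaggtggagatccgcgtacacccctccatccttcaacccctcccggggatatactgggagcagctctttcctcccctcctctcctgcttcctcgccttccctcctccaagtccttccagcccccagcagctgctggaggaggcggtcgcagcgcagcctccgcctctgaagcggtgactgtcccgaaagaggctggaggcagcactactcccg
Srgap1, chr10:122047266-122047565, minus strand: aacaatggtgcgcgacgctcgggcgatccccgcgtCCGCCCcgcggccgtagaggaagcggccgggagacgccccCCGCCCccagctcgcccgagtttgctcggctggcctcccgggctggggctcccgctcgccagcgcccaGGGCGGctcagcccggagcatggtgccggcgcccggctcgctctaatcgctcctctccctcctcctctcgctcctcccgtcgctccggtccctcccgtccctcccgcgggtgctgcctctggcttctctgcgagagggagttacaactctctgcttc
Srgap1 held 3 GC boxes, and 35.7% of 32851 promoters of this length held at least 1. The MAF half-site TGCTGA, searched on both strands, was in none of the 3 sequences and in 19.5% of all promoters. The homeodomain core TAATTA, which is its own reverse complement, was in none of the 3 and in 5.29% of all. Robo2 has other annotated starts, and the one at chr16:75092721-75093020 held a TGCTGA. GENCODE M21 starts Robo1 farther upstream, at chr16:72308306, and no window is shown there. These letters were not found in the windows shown, which says nothing about the factors.

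Genes whose pattern over the 6 libraries was most like that of a member were ranked by the root-mean-square (RMS) difference of log2 CPM, each gene centred on its mean, among 11171 genes with a mean of at least 5 CPM. Nearest to Robo1 were Alg3, an enzyme of N-glycan assembly, Rapgef1, an activator of RAP GTPases, and Rcan3, a calcineurin regulator, at RMS differences of 0.104, 0.107 and 0.113 log2 units. Srgap1 was the next, at 0.119, and the median over all genes was 0.513. Nearest to Srgap1 were Nme4, a mitochondrial nucleoside diphosphate kinase, at 0.110, then Robo1 at 0.119 and Alg3 at 0.139, with a median of 0.589 over all genes. With the minimum lowered to 1 CPM, 2 of the 3 nearest genes were kept for each, and Sall1 came first for Robo1 at 0.0678. Both members were chosen for being low in TG, so their likeness is a description over 6 libraries.

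Robo2 was farther from its relatives, at an RMS difference of 0.749 from Robo1 and 0.726 from Srgap1. Its nearest genes, looked up after its values had been seen, were Cbr3, a carbonyl reductase, Ero1lb, an oxidase of the endoplasmic reticulum abundant in pancreas, and Cnr1, a cannabinoid receptor, at 0.184, 0.189 and 0.207. In Cbr3, Ero1lb and Cnr1, as in Robo2, TG 2 stood between the other TG libraries and the WT libraries. This follows from ranking them by likeness to Robo2 over the same libraries. In Cbr3, TG 2 was hardly below WT, at 9.92 CPM against 9.98 CPM in WT 3. Srgap2 and Srgap3 were 0.146 apart.

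**Figure D5:**
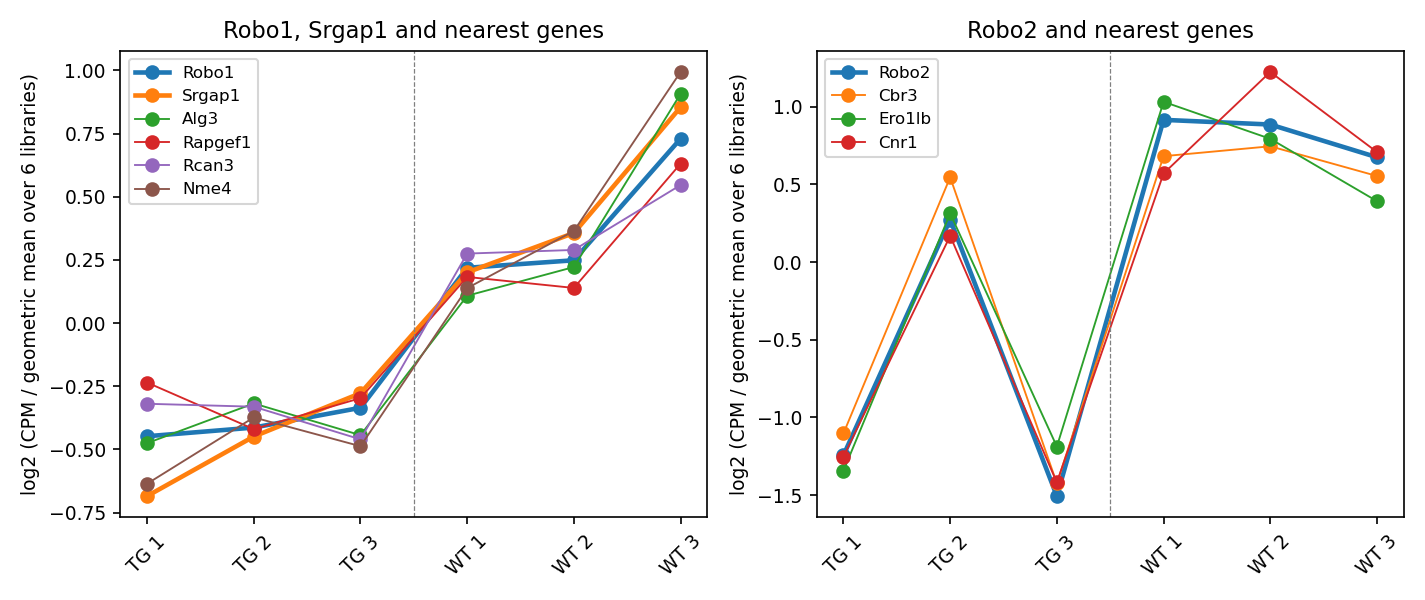
Pattern over the 6 libraries of Robo1, Srgap1 and their nearest genes (left) and of Robo2 and its nearest genes (right), as log2 CPM relative to the geometric mean of each gene over the libraries (vertical axis), with TG libraries left of the dashed line and WT libraries right of it. Lines join the points of a gene, members are drawn thicker, and the order of libraries has no meaning. Robo1 and Srgap1 are nearly level over the TG libraries, whereas Robo2 is higher in TG 2 than in TG 1 and TG 3.

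Partners, regulators and effectors of SLIT-ROBO signalling outside the family were read from a list of 36 genes, all tested. In edgeR, 0 of them passed the Benjamini-Hochberg threshold of 0.05, the same share as over all tested genes (0%). A fitted value above 0 was found for 23 and below 0 for 13, with a median log2 fold change of 0.13, but without TG 1 these were 17 and 19, with a median of -0.0099. At an unadjusted p under 0.05 there were 6 higher (16.7%, against 9.32% of tested genes) and 1 lower (2.78%, against 4.81%). DESeq2 called Cables1 higher and Flrt1 lower, where it called 3.83% of tested genes higher and 0.846% lower, and limma-voom called 0. Without TG 2, edgeR called 7 of the 36, 5 higher and 2 lower, where it called 8.82% of genes higher and 4.39% lower. The 3 higher genes of smallest p were Cables1, an adaptor that links ROBO to the ABL kinase and N-cadherin, Nell2, a ligand of ROBO3, and Gpc1, a heparan sulfate proteoglycan that binds SLIT2. Cables1 was at 8.73, 2.62 and 15.7 CPM in libraries TG 1, TG 2 and TG 3, against 1.89, 2.24 and 3.11 CPM in WT 1, WT 2 and WT 3, with a log2 fold change of 1.76 (SE 0.48). TG 2 fell among the WT libraries. Nell2 had a log2 fold change of 2.22 (SE 0.71) at no more than 1.74 CPM in any library, and Gpc1 one of 0.86 (SE 0.31).

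On the lower side of the same list stood Flrt1, of a family of leucine-rich membrane proteins that includes partners of ROBO1, Sdc3, a syndecan, and Nell1, the paralog of Nell2. Flrt1 was at 7.02, 15.0 and 9.55 CPM in libraries TG 1, TG 2 and TG 3, against 20.5, 19.6 and 35.5 CPM in WT 1, WT 2 and WT 3. The genotypes did not overlap, with a log2 fold change of -1.21 (SE 0.34) and a Benjamini-Hochberg adjusted p of 0.238 in edgeR. Every TG library was below every WT library for 2 of the 36 listed genes (5.56%) and above for 1 (2.78%). Over all tested genes these shares were 6.42% and 6.96%. Nell1 was at 45.8, 154 and 74.6 CPM in libraries TG 1, TG 2 and TG 3, against 178, 116 and 148 CPM in WT 1, WT 2 and WT 3. Here the genotypes overlapped through TG 2, with a log2 fold change of -0.70 (SE 0.43), and Sdc3 had one of -0.24 (SE 0.14).

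The other classic guidance families, netrins, semaphorins, plexins and ephrins with their receptors, were read from a list of 63 genes, of which 52 were tested. Of these, 0 passed the Benjamini-Hochberg threshold in edgeR, 42 had a fitted value above 0 and 10 below, and the median log2 fold change was 0.36. That median came to 0.16 without TG 1, 0.21 without TG 3 and 0.54 without WT 2. At an unadjusted p under 0.05 there were 16 higher (30.8%) and 0 lower, against 9.32% and 4.81% of tested genes. The 16 of 52 became 7 of 53 without TG 1 and 25 of 55 without TG 2. They became 3 of 53 without TG 3 and 6 of 56 without WT 3. Over all tested genes, in either direction, the number went from 2271 to 1504, 5028, 877 and 891 in the same 4 fits. DESeq2 called 6 of the 52, all higher (Ntn4, Sema3e, Sema4a, Sema4g, Sema6c and Efna2), and limma-voom 0. Over all tested genes, DESeq2 called 3.83% higher and 0.846% lower. Every TG library was above every WT library for 7 of the 52 (13.5%) and below for 0, against 6.96% and 6.42% of tested genes. Ntn4, a netrin of basement membranes, was at 29.4, 16.0 and 29.9 CPM in libraries TG 1, TG 2 and TG 3, against 9.12, 12.6 and 9.46 CPM in WT 1, WT 2 and WT 3. Its groups did not overlap, with a log2 fold change of 1.26 (SE 0.29). The semaphorins Sema4g and Sema6c stood at 2.32 (SE 0.47) and 1.36 (SE 0.34) on the same scale. The lower genes of smallest p, Sema4b, Plxna3 and Sema5a, had -0.17, -0.20 and -0.37 and overlapped between the genotypes. In the same fit 4 of the 9 members were below 0 and 5 above it.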

How the data were processed

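The authors sequenced RNA of 3 TG and 3 WT islet libraries, and the submitters' processing notes name CASAVA 1.8, HISAT2 and the build GRCm38 (mm10). The sources used here do not give the counter, its strand setting or the annotation release. The deposited raw counts are whole numbers per gene, and the deposited FPKM were scaled by gene length within each of the 2 tables, per the file headers. The tables were joined by gene ID, and the counts were modelled in R 4.3.3 with edgeR 4.0.16 (filterByExpr on genotype, trimmed mean of M values, quasi-likelihood F-test, Benjamini-Hochberg over 16072 genes, threshold 0.05), with table and genotype as terms. Alternatives used DESeq2 1.42.0, limma 3.58.1 (voom), other scaling, no filter, each table alone and each library left out. The SE is the absolute log2 fold change over the square root of F. The fits were tested on simulated data. Intervals and floors cover counting error only. The text names all 9 members, per list the 3 genes of smallest unadjusted p in each direction, and for Robo1 and Srgap1 the 3 nearest genes. Members and lists were chosen with earlier results of these data known. Sequences are from RefSeq (GRCm38.p6) and GENCODE M21. Start and end of 6 of 9 members are the same in M21 as in the tables (not Robo1, Robo2 and Robo3).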

Additional observations from a re-analysis of the deposited data

How the results depend on the processing

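Robo1, Robo2 and Srgap1 kept a log2 fold change below 0 in all 14 alternatives. Slit1, Slit2, Slit3, Srgap2 and Srgap3 kept one above 0 in all 14, while Robo3 ran from -0.74 to 0.17. The genotypes did not overlap for Robo1, Robo2, Srgap1 and Slit2, so leaving out a library or a table could hardly turn their sign. The members were also chosen by this contrast, so the kept signs are a description. The median of the members was 0.15 and ran from 0.046 without WT 1 to 0.34 without WT 2. Counts of calls for TG over WT depended on the tool and on TG 2. All genes called were 0 with edgeR, 752 with DESeq2 and 1672 without the low-count filter, and from 0 to 2188 (without TG 2) with 1 library left out. For the partner list these counts were 0, 2 and 7, and 0 to 7 with 1 library left out (7 without TG 2). For the guidance list they were 0, 6 and 12, and 0 to 16 (16 without TG 2). The interaction was called for 0 genes with edgeR, 5 with DESeq2 and 137 without the filter. The table was called for 1532, 3429 and 3682 genes, with Robo2 the 1 member among the last (adjusted p = 0.0142 in edgeR). Single values turned sign near 0. Sema4b was at 0.026 in the second table, and Plxna3 at 0.0072 in the first table. With 1 library left out, Plxna3 ran from -0.29 to 0.0067 (without TG 3; 0.0017 without WT 3) and Sema5a from -0.57 to 0.0055 (without WT 2). The table contrast of Slit1 was -0.03 and came to 0.28 with limma-voom and 0.15 with library size only. The cause of these changes was not tested. Scaling to library size alone moved the median of all genes to 0.07. No paired analysis was possible because the labels give TG and WT libraries no shared animal, litter or day. The SLITs had 1 to 99 counts per library and Robo3 19 to 69, the fewest of the members, so counting error weighs most on their values.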

Other observations

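Robo4, the endothelial relative of the receptors that lies 1.645 kb from Robo3, was at 18.6, 17.1 and 34.5 CPM in libraries TG 1, TG 2 and TG 3, against 17.6, 22.8 and 17.9 CPM in WT 1, WT 2 and WT 3. The summed endothelial markers stood at 92.3%, 85.6% and 210% of the WT level of their table in TG 1, TG 2 and TG 3. Robo4 and these markers were thus both highest in TG 3. The interaction of table and genotype for Robo4 was 1.12 (SE 0.38, unadjusted p = 0.0254, Benjamini-Hochberg adjusted p = 0.9999 in edgeR).

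All members but Robo3 are long genes. By their deposited start and end, Slit3 spans 587 kb and Robo2 519.52 kb, longer than 99.3% and 99.1% of tested genes. Robo2 has other annotated starts outside this span. The 782 tested genes longer than 200 kb had a median log2 fold change of 0.10, and 39.5% of them were below 0. Among the 5046 genes shorter than 10 kb the median was -0.05, and 55.7% were below 0. For the long genes the median log2 ratio to the WT level of the same table was 0.18 in TG 1, -0.08 in TG 2 and 0.22 in TG 3. Of the members longer than 200 kb, Robo1, Robo2 and Srgap1 had log2 fold changes below 0, and Slit2, Slit3, Srgap2 and Srgap3 above it.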
